A study of Mus musculus with 7 samples.

Results

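Ribosomal protein genes were taken as every feature whose symbol starts with Rpl or Rps followed by a digit or by p, leaving out symbols that contain -ps (named pseudogene copies) and the Rps6k kinases. The rule found 93 of 55357 features, and it uses names only, no measured value. It leaves out genes under other names, such as Rpsa, Fau and Rack1, whose products are also parts of the ribosome and it takes in Rps19bp1, whose product binds Rps19 and is not part of the ribosome. The data were UMI counts (each UMI marks 1 captured RNA molecule) from single liver cells of 7 mouse samples, all labelled as hepatocellular carcinoma tissue. All 7 had received Nras and C-myc plasmids by hydrodynamic tail vein injection, a rapid injection of a large volume that brings plasmids into hepatocytes, and were taken 2 weeks later. The 3 controls received no further plasmid, and the 4 treated samples also received an IL-2/CD25 expression plasmid. The sources used here give neither strain, age and sex nor the promoters of the plasmids, and nothing in them says whether samples came from separate animals. The p-values of tests within a cell type thus measure the spread between these 7 samples, which may be technical. All 7 carry the same batch label.

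Each ribosome holds a single copy of nearly every ribosomal protein, so cells make these proteins in near-equal amounts, and their mRNAs are among the most abundant in growing cells. Their mRNAs mostly begin with a C followed by a run of pyrimidines, the 5′ terminal oligopyrimidine or TOP motif, through which the kinase mTOR and the RNA-binding protein Larp1 set how much of them is translated. In immune cells, quiescent lymphocytes hold few ribosomes and make more when activated, and maturing neutrophils lose most of their ribosome production. A few members have paralogues that are used in particular tissues, such as Rpl3l in heart and skeletal muscle.

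The controls held 76438139 to 181755269 UMIs each and the treated samples 37653600 to 47881379. Keratin-positive tumour-like cells, gated by markers, held 35024771, 21250686 and 132575914 UMIs in controls 1 to 3. In the treated samples they held 66961 to 1784867. The totals thus also carry the cell make-up and do not by themselves show deeper sequencing. Filters left 7244 to 10439 cells per sample. The median cell had 6253.5 to 8724 UMIs in control libraries and 3215 to 4477.5 in treated libraries. Malat1, a nuclear RNA, made up 0.961 to 2.07% of control UMIs and 2.35 to 2.82% of treated UMIs. Pairs of samples shared 14 to 37 cell barcodes. Cell types were gated by UMIs of marker genes that hold no member, and 11 types were compared, each with at least 20 cells in enough samples of both groups. Over both groups they ranged from 341 mature dendritic cells to 14983 NK cells and ILC1 (natural killer cells and innate lymphoid cells of group 1), and the balance differed between groups, with 501 NK cells and ILC1 in the controls against 14482 in the treated samples and 7588 monocytes and macrophages against 580.

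Of the 93 members, RefSeq calls 88 protein-coding, 4 pseudogenes (Rps12l1, Rpl6l, Rps3a2 and Rps3a3) and 1 a transcribed pseudogene (Rps4l). In all cells together 65 members stood above 1000 CPM (counts per 1000000 UMIs), 14 at 100 to 1000, 5 at 10 to 100 and 9 under 10 CPM, with a median of 1991. All 93 had at least 1 UMI, and Rpl10l, a testis paralogue of Rpl10, had 1 UMI. By the mean of all 7 samples the highest was Rplp1 (ENSMUSG00000007892), a protein of the ribosomal stalk, at 5067 CPM, followed by Rps24 (ENSMUSG00000025290) at 4845, Rpl41 (ENSMUSG00000093674) at 4670, Rpl37a (ENSMUSG00000046330) at 4418 and Rpl23 (ENSMUSG00000071415) at 4323. The order differed by group, since Rpl41 was the highest of these 5 in the controls (6028 CPM) and Rps24 in the treated samples (5375 CPM). These levels are over all cells, and tumour-like cells made up far more of the control UMIs. The 10 highest members held 24.2% of all member UMIs. Libraries of the 3′ kind count molecules without regard to length, but how well each gene's 3′ end is captured is unknown, so levels of different genes were not tested against each other. The 310 features named as pseudogene copies held as many UMIs as 0.329% of the member UMIs, and 63 members have such copies. The sources used here do not say how reads that fit both a gene and a copy were counted, so the level of those members is uncertain to that extent.

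The share of all UMIs held by the members differed between cell types, most of all between neutrophils and the rest. In NK cells and ILC1 it also differed widely between groups (23.7% in the controls and 13.4% in the treated samples). Their 7-sample mean therefore lies between unlike groups. Neutrophils were lowest in 7 of 7 samples, with a 7-sample mean of 5.09%. CD8 T cells had the highest mean (24.0%) and were the highest type in 4 samples, while B cells were highest in 2 and T cells with neither Cd4 nor Cd8 UMIs (called other T cells) in 1. Between these stood B cells at 21.7%, other T cells at 20.4%, conventional dendritic cells of type 2 (cDC2) at 19.7%, type 1 (cDC1) at 19.6%, CD4 T cells at 19.2%, NK cells and ILC1 at 17.8%, mature dendritic cells at 16.2%, monocytes and macrophages at 16.0% and plasmacytoid dendritic cells at 14.6%. Neighbours in this order, neutrophils aside, differed by less than the larger of their SDs over the 7 samples, which also carry the group difference. Within single samples plasmacytoid dendritic cells ranked 9 or 10 of the 11 types. Mature dendritic cells and monocytes and macrophages ranked 7 to 9. Outside the comparison, keratin-positive tumour-like cells of the controls held 23.9% ± 0.514 (SD). In the 2 treated samples with at least 20 such cells they held 10.8% ± 0.936. They had enough cells to be compared but were left out, because the treated ones lay in another cluster with bile duct markers. Hepatocyte-like barcodes of the treated samples held 8.56% ± 1.28.

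**Figure D1:**
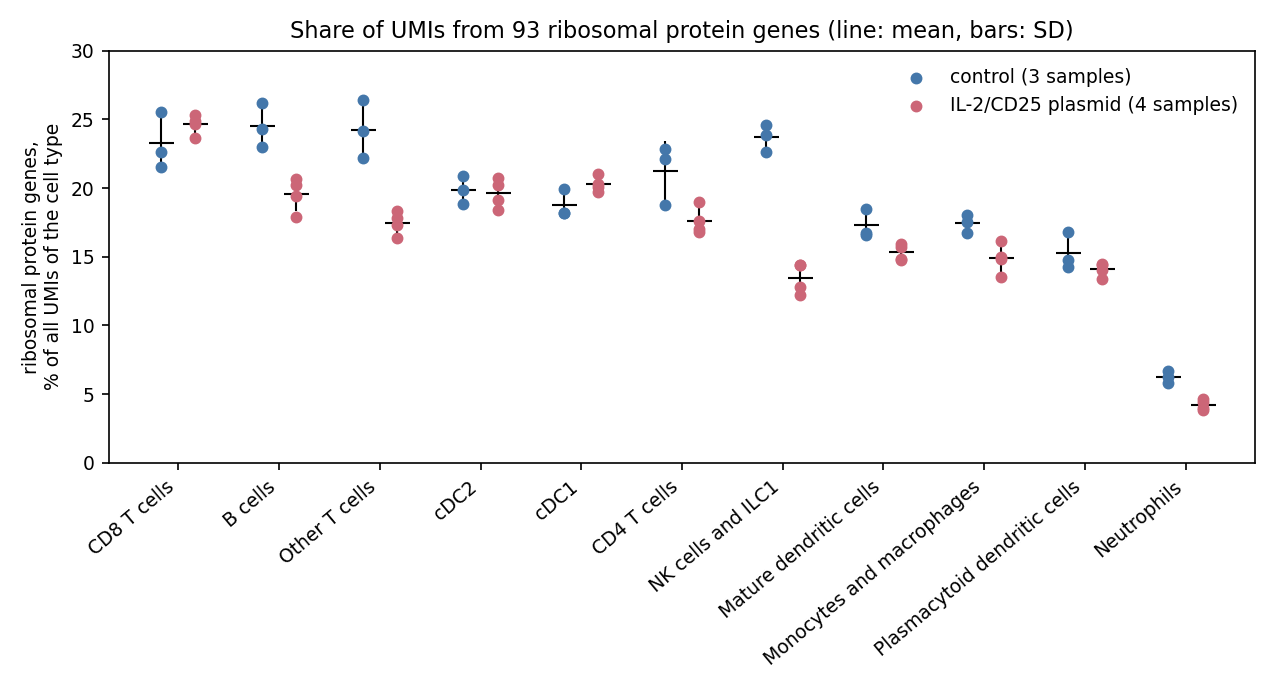
Share of a cell type's UMIs (vertical axis, percent) from the 93 genes in 11 cell types ordered by their mean, with a point for each sample, a line for the group mean and bars for the SD over 3 control (blue) and 4 treated samples (red). Neutrophils stand at 3.81 to 6.70%, below every other type, and the groups are farthest apart in NK cells and ILC1.

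With the IL-2/CD25 plasmid the share was lower, with no overlap between the groups, in 6 of the 11 cell types, and the groups overlapped in CD8 and CD4 T cells, cDC1, cDC2 and plasmacytoid dendritic cells. In NK cells and ILC1 the members held 22.6, 24.6 and 23.8% of UMIs in controls 1 to 3 and 14.4, 12.8, 12.2 and 14.4% in treated samples 1 to 4, a ratio of means of 0.567. The groups were well apart, and every treated sample lay below every control. CD8 T cells had shares of 21.5, 25.6 and 22.6% against 25.3, 24.9, 23.7 and 24.7%, and the groups overlapped, control 2 being the highest sample. In other T cells they were 22.2, 26.4 and 24.1% against 17.8, 17.3, 16.4 and 18.3%, with no overlap. B cells held 23.0, 24.3 and 26.2% against 20.2, 19.4, 17.9 and 20.6%, also without overlap. As a sum over the members these shares are described, not tested.

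Among myeloid cells, neutrophils held 6.27, 5.81 and 6.70% in the controls and 3.81, 3.98, 4.42 and 4.64% in the treated samples. Monocytes and macrophages held 17.5, 16.7 and 18.0% against 15.01, 14.8, 13.5 and 16.1%. Neither pair of groups overlapped. The groups had different main clusters in both types, however. The main cluster of control neutrophils held 42.6% of them and that of treated neutrophils 92.3%. For monocytes and macrophages the main clusters held 60.6 and 57.6%. Values of these types, here and below, may thus compare cells of unlike kind, which was not tested. With neutrophils taken by cluster in place of the gate the difference turned, at 5.28% in the controls and 5.48% in the treated samples. Mature dendritic cells went from 17.3% ± 1.05 (SD, n = 3) to 15.3% ± 0.595 (n = 4), again without overlap. The groups overlapped in CD4 T cells (21.2% ± 2.20 against 17.6% ± 0.992), plasmacytoid dendritic cells (15.3% ± 1.36 against 14.1% ± 0.495), cDC1 (18.8% ± 1.00 against 20.3% ± 0.539) and cDC2 (19.9% ± 0.997 against 19.6% ± 1.06). As a mean over cells, plasmacytoid dendritic cells went the other way, with 12.4 and 13.6%.

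UMIs of other cell types moved with the groups as well. UMIs of the 7 neutrophil markers stood at 16.1 per 10000 in NK cells and ILC1 of the controls and 2.92 in the treated samples, at 15.7 and 2.22 in B cells, and at 11.8 and 1.82 in CD8 T cells. UMIs of the NK markers in B cells went the other way, from 0.20 to 2.60 per 10000. The Malat1 share also differed, at 1.48 to 1.84% of the UMIs of control NK cells and ILC1 against 2.49 to 2.99% in the treated samples, and at 0.908 to 1.06% against 2.00 to 2.25% in CD8 T cells. With 10% free RNA of the sample's own make-up subtracted, NK cells and ILC1 held 24.1 and 13.1% of UMIs in the members, and with Malat1, mitochondrial UMIs and the ribosomal RNA feature Rn18s-rs5 left out of the total 24.8 and 14.3%, so the gap was as large.

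Depth differed in both directions between groups, and so the share was also read in cells of like UMI count. Treated NK cells and ILC1 had medians of 3027 to 4350 UMIs against 3330.5 to 6269 in the controls, while treated B cells were deeper (2514 to 3028 against 1766 to 2436). In NK cells and ILC1 the share was 19.8% in the controls and 12.7% in the treated samples at 2000 to 4000 UMIs, 24.2 and 14.1% at 4000 to 8000, and 24.8 (n = 2) and 14.98% from 8000 upward. The groups did not overlap in any of the 3 ranges. B cells at 2000 to 4000 UMIs held 23.8 and 19.5%, and other T cells at 4000 to 8000 held 24.5 and 17.8%, so the lower share was also present at like depth.

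The direction in CD8 T cells depended on depth. At 2000 to 4000 UMIs the controls held 24.8% (n = 2) and the treated samples 21.96%, without overlap, whereas at 4000 to 8000 UMIs they held 24.0 and 26.0% and overlapped. In neutrophils the groups were apart at 1000 to 2000 UMIs (5.06 and 3.63%) and overlapped at 2000 to 4000 (4.13 and 3.59%). In monocytes and macrophages they overlapped at 4000 to 8000 UMIs (16.5 and 15.02%) and were apart from 8000 upward (17.6 and 15.02%).

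**Figure D2:**
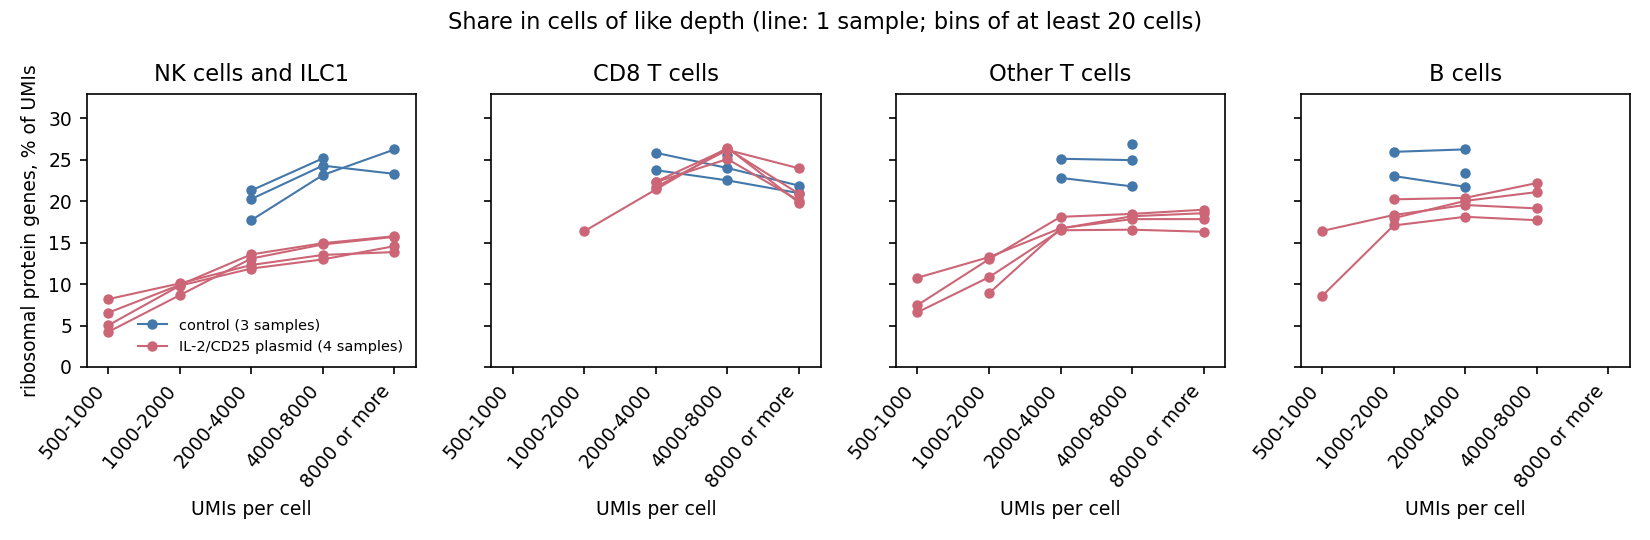
Share of UMIs from the 93 genes (vertical axis, percent) by range of UMIs per cell (horizontal axis) in NK cells and ILC1, CD8 T cells, other T cells and B cells, with a line for each control (blue) and treated (red) sample and only ranges with at least 20 cells. In NK cells and ILC1 the control lines lie above the treated lines in every range from 2000 UMIs upward, while in CD8 T cells the lines of both groups cross.

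The CD8 T cells of the groups were made up differently. Cells with naive-like markers (Ccr7, Lef1, Dapl1 and Satb1 among them) were 22.8% ± 16.0 of control and 70.7% ± 3.97 of treated CD8 T cells, and cells with UMIs of division genes 32.1% ± 9.31 and 0.587% ± 0.298. Naive-like cells had the highest share of member UMIs in both groups, 29.7% ± 2.25 (n = 3) in the controls and 26.7% ± 0.753 (n = 4) in the treated samples, and the lowest control (27.9%) was above the highest treated sample (27.4%). Effector cells (Gzmb, Gzmk, Pdcd1, Lag3 and Ccl5) held 20.7% ± 0.635 (n = 2) and 16.7% ± 1.17, and cells with neither or both patterns 23.3% ± 1.35 and 21.1% ± 1.17. Within each of these 3 subsets the treated mean was thus below the control mean, while over all CD8 T cells it was above it. Other T cells showed the same order of subsets, with 27.1 and 19.4% in naive-like cells and 20.1 (n = 2) and 15.7% in effector cells.

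The share was also read within single clusters, which were made without the members. In the cluster with most control NK cells and ILC1 (71.7% of them) the share was 24.2% in the controls and 13.3% in the treated samples. Most treated B cells (96.9%) and most control B cells (90.9%) fell into different clusters. In the cluster of the control cells the shares were 24.5 and 16.2%, but it held only 82 treated cells (n = 3 treated samples). Non-dividing NK cells and ILC1 alone held 23.8 and 13.4%. These differences in NK cells and ILC1 and in B cells were as large as or larger than those over the whole type. Within 1 cluster, which held 378 of 7588 control and 139 of 580 treated cells, the gap was also larger in monocytes and macrophages (14.7 and 10.2%). It was smaller in other T cells (23.6%, n = 2, and 17.5%) and in neutrophils (5.49 and 3.66%, n = 2 treated samples).

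Single members were then tested with edgeR on UMIs summed per sample and cell type, with all genes in the fit and TMM scaling, which sets libraries against each other by all genes. Of the 93 members, 82 to 88 passed the filter on low counts in a cell type. In NK cells and ILC1, 2 of 88 were called higher and 78 lower at an adjusted p of 0.05, where 21.8 and 21.1% of 13845 genes were called. In neutrophils 0 of 85 were higher and 73 lower (26 and 28.7% of 7058 genes), and DESeq2 and an unadjusted p under 0.05 in edgeR gave 0 higher as well. With neutrophils taken by clusters 6 were higher and 46 lower. Other T cells had 2 higher and 62 lower of 86 (9.01 and 10.3%), monocytes and macrophages 4 and 59 of 86 (27 and 26.8%), and B cells 4 and 58 of 85 (9.95 and 13.7%). In these types the members called lower were a far greater part than among all genes. In monocytes and macrophages of 1000 to 4000 UMIs alone, where fewer cells remained, edgeR called 0 of 80 members, with 16 at an unadjusted p under 0.05.

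Elsewhere fewer members were called. CD4 T cells had 3 members higher and 32 lower of 84 (5 and 6.95% of 9903 genes), cDC2 9 and 29 of 86 (19.8 and 21.5%), mature dendritic cells 5 and 27 of 82 (10.7 and 11.9%) and plasmacytoid dendritic cells 6 and 17 of 84 (3.31 and 4.97%). In these types too the members called lower were a greater part than among all genes. CD8 T cells had 16 higher and 29 lower of 86 (27.2 and 29.4% of 11521 genes), and with the members left out of the scaling factors 22 and 26. Both parts lie near the background of CD8 T cells. In cDC1 15 of 84 were higher and 6 lower (17.8 and 18.3%), the only type of the 11 with more members higher than lower. Single samples moved the counts of the smaller types. Without control 3 the members called numbered 35 in cDC1, 19 in CD4 T cells, 18 in mature dendritic cells and 15 in plasmacytoid dendritic cells. They numbered 20 in CD4 T cells without control 2, 14 in plasmacytoid dendritic cells without control 1, and 12 in cDC1 and 21 in mature dendritic cells without treated sample 2.

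The median log2 fold change of the members tested was −0.91 in neutrophils, −0.89 in NK cells and ILC1, −0.58 in other T cells, −0.45 in B cells, −0.40 in CD4 T cells, −0.39 in monocytes and macrophages, −0.23 in plasmacytoid dendritic cells, −0.18 in mature dendritic cells, −0.14 in cDC2, −0.08 in CD8 T cells and 0.08 in cDC1. The medians of all genes tested lay within 0.06 of 0 in every type.

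**Figure D3:**
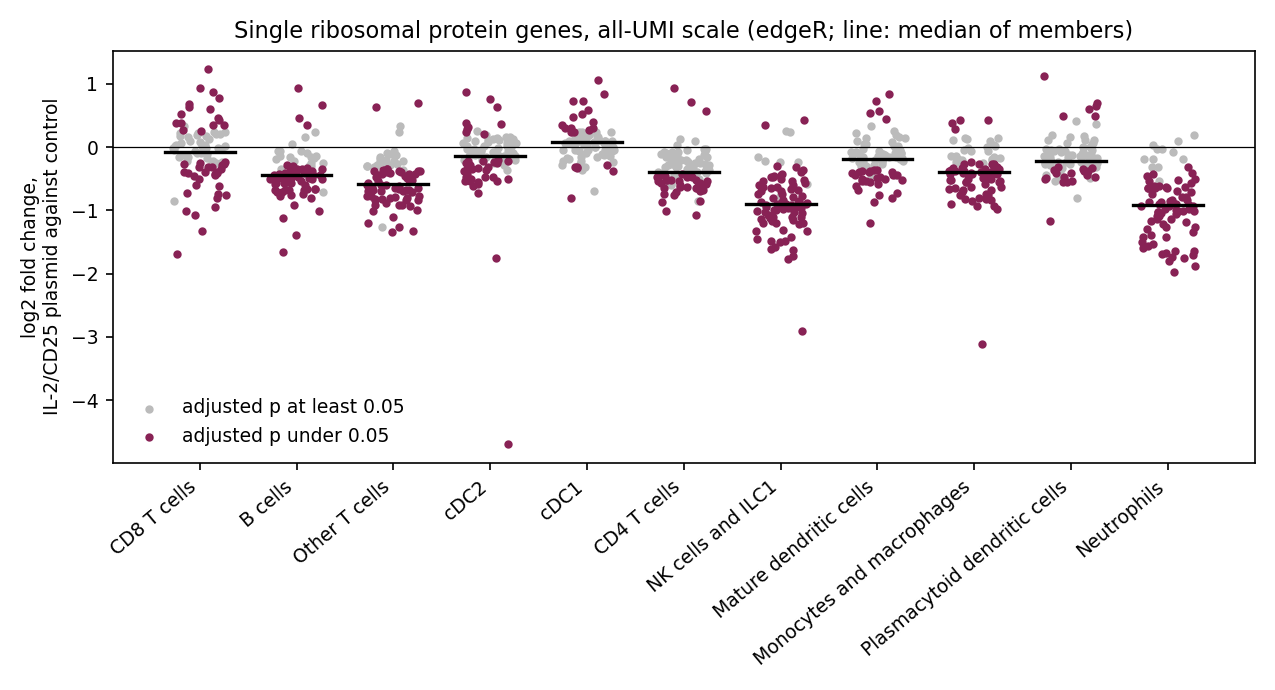
Log2 fold change of single ribosomal protein genes, treated against control (vertical axis, edgeR with TMM scaling), in 11 cell types, with a point for each gene tested, dark red where the adjusted p was under 0.05, and a line at the median of the members. The medians run from −0.91 in neutrophils to 0.08 in cDC1, and points above and below 0 are present in every type.

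The most abundant members followed the whole in NK cells and ILC1. Rplp1, which with Rplp2 forms the stalk that recruits elongation factors, held 6668, 6578 and 6475 CPM in controls 1 to 3 and 3940, 3536, 3453 and 3954 CPM in treated samples 1 to 4 (log2 fold change −0.88, SE 0.12, edgeR adjusted p 0.000129). Rpl41, the shortest ribosomal protein, held 6088, 7534 and 6158 against 3193, 3028, 3052 and 3431 CPM (−1.12). Rps24, a small-subunit protein mutated in some patients with Diamond-Blackfan anaemia, held 6737, 7104 and 7318 against 4718, 4230, 4033 and 4564 CPM (−0.74). In all 3 the treated samples lay below every control. Rplp1 in CD8 T cells stood at 6065, 7486 and 6123 against 8104, 8186, 8074 and 7943 CPM, apart in CPM, but the fitted change of 0.21 did not pass the test (adjusted p 0.0841).

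Some members fell well beyond the rest. Rps26 (ENSMUSG00000025362), a protein at the channel where mRNA leaves the small subunit, held 3338, 3926 and 3469 CPM in control and 1059, 1059, 1082 and 1190 CPM in treated NK cells and ILC1 (log2 −1.77, SE 0.12, edgeR adjusted p 1.14e-06). The treated samples lay close together at less than any control. In neutrophils Rpl3 (ENSMUSG00000060036), a large-subunit protein close to the peptidyl transferase centre, held 422, 391 and 514 CPM in the controls and 83.4, 125, 141 and 188 CPM in the treated samples (−1.98, SE 0.20, adjusted p 9.57e-06). Rplp0 (ENSMUSG00000067274), the base of the stalk, held 920, 811 and 1115 against 306, 299, 341 and 418 CPM there (−1.74, SE 0.15, adjusted p 2.46e-06). Neither overlapped between groups.

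Whether the plasmid effect differed between lymphoid types (T, NK and B cells) and myeloid types was tested in a joint edgeR fit over all cell types with the sample as a block. This fit takes the sums of a sample's cell types as separate units. Its p-values, here and below, thus rest on the spread of these sums within samples and may be too small for 7 samples. With TMM scaling 3 members had a higher effect in lymphoid cells and 46 a lower one, of 87 tested, against 9.06 and 10.9% of 12713 genes. Rpl10, a large-subunit protein that joins late in its maturation, differed by −0.56 (SE 0.05, adjusted p 7.18e-13) and Rps26 by −0.49 (SE 0.05, adjusted p 8.72e-12). The lymphoid mean weights the 5 lymphoid types equally, CD8 T cells included.

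Since the whole share moved, each member was also set against the UMIs of all members, which asks which genes changed their part within the ribosomal protein mRNA. On this scale the median log2 fold change of all genes tested shifted to values from −0.06 in cDC1 to 0.96 in NK cells and ILC1, so it is read here between members only, and the counts over all genes mainly carry that shift. NK cells and ILC1 had 27 members higher and 23 lower of 88 (60.2 and 6.23% of all genes), neutrophils 17 and 24 of 85 (63.6 and 9.15%), monocytes and macrophages 20 and 23 (44.7 and 13%) and other T cells 17 and 18 (38 and 4.41%). B cells had 14 and 18 (34.8 and 5.89%), CD4 T cells 6 and 7 (12.7 and 2.82%), and plasmacytoid dendritic cells 12 and 9 (6.44 and 3.21%). CD8 T cells had 23 and 33 (24.7 and 28.8%), or 26 and 23 with median-of-ratios scaling over the members. cDC1 had 14 and 17 (12.7 and 20%), cDC2 19 and 21 (22.7 and 16.4%), and mature dendritic cells 13 and 14 (16.5 and 7.62%), or 13 and 7 with median-of-ratios scaling. Without control 3 the count of members called on this scale was 8 in CD4 T cells and 15 in mature dendritic cells, and without control 1 it was 14 in the latter.

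A few members changed their part in the same direction in all 11 cell types, though they were not in every type among those with the largest change. Rpl23a (ENSMUSG00000058546), which sits at the exit of the nascent-chain tunnel, Rps15 (ENSMUSG00000063457), a protein of the small-subunit head, and Rpl5 (ENSMUSG00000058558), which carries the 5S rRNA together with Rpl11, were higher in 11 of 11 types, and Rpl32 (ENSMUSG00000057841) of the large subunit and Rps18 (ENSMUSG00000008668) of the small-subunit head were lower in 11 of 11. Of 4467 genes tested in every type, 1.03% were higher and 0.716% lower in all 11 on this scale. In at least 10 types 4 members were higher, Rps25 (ENSMUSG00000009927) being the fourth, and 4 lower, with Rplp0 and Rpl28 (ENSMUSG00000030432), against 3.04 and 1.3% of genes. With TMM scaling 0 of 82 members were higher and 3 lower in all 11 types (0.358 and 1.7% of genes), and 2 were higher and 10 lower in at least 10 (1.01 and 4.39%). The 2 were Rpl23a and Rps15.

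**Figure D4:**
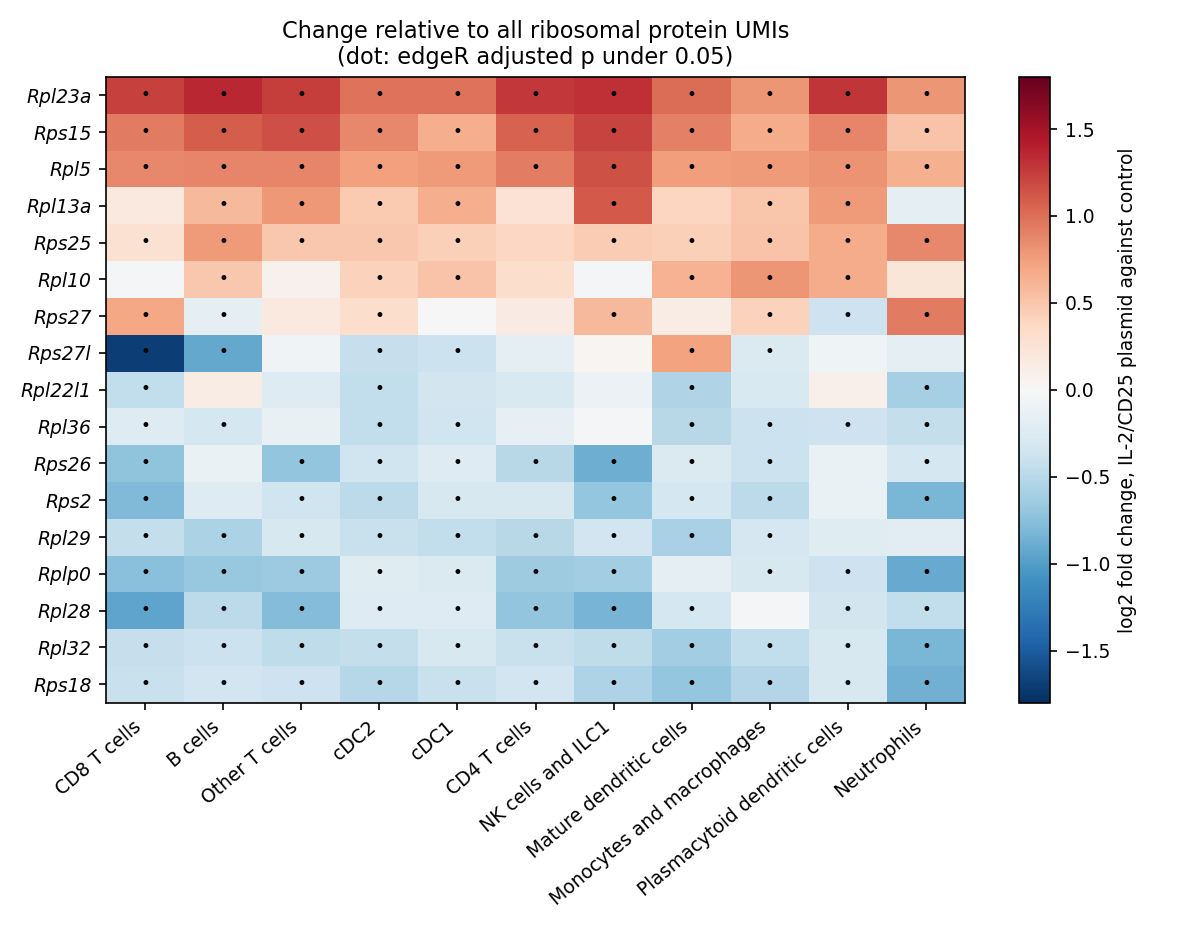
Log2 fold change of 17 named members against all ribosomal protein UMIs, treated against control (colour, red higher and blue lower), in 11 cell types ordered by their mean share, with a dot where the edgeR adjusted p was under 0.05. The rows of Rpl23a, Rps15 and Rpl5 are red with a dot in all 11 types and those of Rpl32 and Rps18 blue with a dot in all 11, while Rps27l is dark blue in CD8 T cells and red in mature dendritic cells.

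The stretch of DNA around the RefSeq start of 6 of these genes is shown because TOP mRNAs begin with a pyrimidine run. Each line gives the 15 bases before and the 15 from the start, in the GRCm38.p6 assembly and on the gene's strand, 5′ to 3′, and the capitals mark the longest run of C and T. The first 3 genes were higher and the last 3 lower on the member scale.
Rps15, chr10:80292416-80292445, plus strand: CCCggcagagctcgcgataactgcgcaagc
Rpl5, chr5:107900513-107900542, plus strand: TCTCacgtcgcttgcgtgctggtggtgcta
Rps25, chr9:44407699-44407728, plus strand: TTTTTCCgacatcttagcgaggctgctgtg
Rps18, chr17:33955651-33955680, minus strand: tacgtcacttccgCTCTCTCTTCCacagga
Rpl28, chr7:4792950-4792979, plus strand: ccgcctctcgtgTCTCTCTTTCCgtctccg
Rplp0, chr5:115559452-115559481, plus strand: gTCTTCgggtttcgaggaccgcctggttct
The run was 3 bases in Rps15, 4 in Rpl5, 7 in Rps25, 5 in Rplp0 and 11 in Rps18 and in Rpl28. It covered the annotated start in Rps18 and Rpl28, while in the other 4 it lay before the start, outside the annotated mRNA, and in Rps15, Rpl5 and Rps25 it began at the edge of the window. Of the 93 members 68 had an entry in the RefSeq promoter table, and 55.9% of these held a run of at least 6 pyrimidines in this window, against 29.1% of 27025 genes. The letters CCGGAAG, on either strand, were in 35.3% of the members' 300-base promoters and 9.12% of all, and CTTTCC in 47.1 and 26.3%. These matches describe the letters around the annotated start and do not show where transcription began in these cells.

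Rpl23a had log2 fold changes on the member scale from 0.79 in neutrophils and in monocytes and macrophages to 1.35 in B cells. In NK cells and ILC1 it held 3.06, 3.14 and 2.37 of every 1000 member UMIs in controls 1 to 3 and 7.49, 7.12, 6.99 and 6.90 in treated samples 1 to 4 (1.31, SE 0.11, edgeR adjusted p 1.56e-07). The treated values were narrowly spaced and far above the controls. Among all UMIs the gap there was smaller, 694, 773 and 564 against 1076, 910, 852 and 995 CPM (TMM log2 0.43, adjusted p 0.0333). In CD8 T cells, whose total share differed little, it stood at 664, 837 and 577 against 1895, 1664, 1557 and 1724 CPM (1.23, SE 0.13, adjusted p 3.42e-06). In neutrophils the CPM overlapped, with 262, 253 and 222 against 252, 254, 306 and 342. Rpl23a has pseudogene copies in the annotation, which held 0.378 UMIs per 100 of the gene's own in the controls and 0.721 in the treated samples.

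Rps15 and Rpl5 behaved alike. Rps15 held, in CD8 T cells, 2124, 1995 and 1863 CPM in the controls and 4032, 4016, 4149 and 4068 CPM in the treated samples (log2 0.94, SE 0.09, edgeR adjusted p 1.39e-06). In NK cells and ILC1 it took 8.55, 6.54 and 6.86 of 1000 member UMIs against 16.6, 16.9, 18.1 and 16.7 (1.22, SE 0.10, adjusted p 1.09e-07). On both scales the 4 treated samples lay within a narrow band above all 3 controls. Rpl5, which in free form with 5S rRNA binds the p53 regulator Mdm2, held 2.99, 3.39 and 2.81 against 7.21, 6.88, 6.77 and 6.33 of 1000 member UMIs in NK cells and ILC1 (1.15, SE 0.10, adjusted p 2.39e-07). In CD8 T cells it held 746, 991 and 683 against 1703, 1594, 1464 and 1441 CPM (0.86). With TMM scaling Rps15 was higher in 10 types and Rpl5 in 8, and in NK cells and ILC1 Rpl5 did not pass (0.26, adjusted p 0.151).

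Rps25, a small-subunit protein needed by many viral internal ribosome entry sites, had its largest change of part in neutrophils, from 7.76, 7.04 and 7.13 to 13.9, 12.5, 13.3 and 13.6 of 1000 member UMIs (log2 0.86, SE 0.13, edgeR adjusted p 4.52e-05). Its TMM change there was 0.03 (adjusted p 0.825). In CD4 T cells the groups did not overlap, but the change of 0.37 did not pass (adjusted p 0.0695). Rpl13a, which also takes part in silencing of interferon-induced mRNAs, was higher on this scale in NK cells and ILC1, at 1.20, 0.963 and 0.943 against 2.34, 2.13, 2.16 and 2.24 (1.10, SE 0.12), while its TMM change there was 0.23 (adjusted p 0.186). In neutrophils it did not pass on the member scale (−0.18).

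Leaving out any 1 of the 7 samples, Rpl23a, Rps15 and Rpl5 stayed higher on the member scale in 11 of 11 types. The members called lower held less widely. Rpl32 was lower in 10 or 11 types and Rps18 in 9 to 11 when single samples were left out, with 9 in 5 of the 7 cases for Rps18. Rpl28 was lower in 7 types without control 3, 8 without control 1 and 10 in the other cases, and Rplp0 in 9 or 10. With the replicate block the counts were 10 for Rpl32, 9 for Rps18 and 8 for Rpl28 and Rplp0. In cells of 1000 to 4000 UMIs Rpl23a, Rps15 and Rpl5 were each higher in 6 of 7 types that gave a value. The change of these 3 was thus present at like depth in most types, and the controls' greater UMI totals as a whole cannot be told apart from the group.

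Among the members that lost part of the whole, Rpl32 held 25.9, 25.4 and 27.5 of 1000 member UMIs in control NK cells and ILC1 and 20.4, 18.9, 17.8 and 19.6 in treated ones (log2 −0.46, SE 0.08, edgeR adjusted p 8.9e-05). Over the 11 types its change ran from −0.82 in neutrophils to −0.29. Rps18 fell most in neutrophils, from 12.5, 12.3 and 14.3 to 7.30, 7.22, 6.91 and 7.29 (−0.86). The treated neutrophil samples were close to each other, and all lay below the controls.

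Rplp0 ran from −0.90 in neutrophils to −0.18 in mature dendritic cells, where it did not pass (adjusted p 0.234). Rpl28 depended more on the cell type. In CD8 T cells it held 3045, 3619 and 3541 CPM against 1970, 1950, 1778 and 1800, or 14.1, 14.2 and 15.6 against 7.79, 7.84, 7.51 and 7.29 of 1000 member UMIs (member-scale log2 −0.95, SE 0.08, edgeR adjusted p 9.29e-08). In monocytes and macrophages it did not pass on the member scale (−0.03, adjusted p 0.682). Rps26 in NK cells and ILC1 fell on this scale too, from 14.7, 16.0 and 14.6 to 7.36, 8.29, 8.87 and 8.26 (−0.88).

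The lymphoid and myeloid types also differed on the member scale, with 21 members of higher and 21 of lower effect in lymphoid cells (20.9 and 6.8% of genes). Rpl23a rose more in lymphoid types by 0.31 on the log2 scale (SE 0.04, edgeR adjusted p 3.19e-08). Rpl10 (−0.38, SE 0.04), Rps26 (−0.31, SE 0.03) and Rps27l (−0.46, SE 0.09) had a lower effect there. No free RNA was subtracted in this fit. In plasmacytoid dendritic cells Rpl10 (ENSMUSG00000008682) itself rose from 13.1, 12.7 and 12.6 to 21.3, 20.2, 19.7 and 20.3 of 1000 member UMIs (0.67, SE 0.08, adjusted p 9.47e-06).

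Within neutrophils, which had few member UMIs in all and different main clusters in the groups, further members changed their part. Rps9 (ENSMUSG00000006333), a small-subunit protein near the channel where mRNA enters, held 2320, 1947 and 2359 CPM in the controls and 2509, 2534, 2485 and 2516 CPM in the treated samples (TMM log2 −0.08, adjusted p 0.573), where 73 of 85 members were lower. Its part went from 37.0, 33.5 and 35.2 to 65.9, 63.6, 56.2 and 54.2 of 1000 member UMIs (log2 0.77, SE 0.14, by edgeR). Rps27 (ENSMUSG00000090733), a zinc-finger protein of the small subunit, likewise held 18.6, 18.9 and 17.1 against 35.1, 36.8, 35.3 and 31.8 per 1000 (0.93, SE 0.14, adjusted p 2.4e-05). Its CPM were also apart, at 1169, 1095 and 1147 against 1337, 1467, 1560 and 1475, although the TMM change of 0.10 did not pass (adjusted p 0.423).

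Differences between cell types within the member UMIs were tested in the joint fit, each type against the mean of the others. Neutrophils had 30 members higher and 39 lower of 87 (66.9 and 5.29% of 12713 genes), monocytes and macrophages 41 and 27 (39.1 and 22.3%), and plasmacytoid dendritic cells 26 and 27 (39.1 and 8.33%). cDC1 had 37 and 28 (17.8 and 42.7%), cDC2 36 and 24 (17.8 and 40.1%), and mature dendritic cells 26 and 32 (20.3 and 33.8%). Among lymphoid types the counts were 29 and 25 in CD8 T cells (12.4 and 49.9%), 33 and 20 in CD4 T cells (18.9 and 13.3%), 33 and 32 in other T cells (18.6 and 24%), 32 and 22 in NK cells and ILC1 (29.3 and 19%) and 26 and 36 in B cells (17.4 and 37.3%). Higher and lower together, these counts are near the share of all genes in several types, CD8 T cells among them, so only single members are described from them. With TMM scaling the directions followed the whole share at its ends, with 78 members higher and 3 lower in CD8 T cells and 1 higher and 81 lower in neutrophils. Between the ends they did not. CD4 T cells had 10 higher and 24 lower, whereas cDC1, with a similar share, had 80 and 1. Mature dendritic cells, low in share, had 50 higher and 2 lower. The share of all genes called is not given for these TMM counts, so they are not read further.

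Rpl31 (ENSMUSG00000073702), a large-subunit protein beside the exit tunnel, held 12.6 of 1000 member UMIs in plasmacytoid dendritic cells and 2.43 to 3.80 in the other 10 types (log2 difference 1.99, SE 0.04, edgeR adjusted p 1.57e-53). All 7 samples showed it, with 10.9, 11.3 and 10.2 in the controls and 13.8, 14.3, 13.4 and 14.1 in the treated samples. In RefSeq Rpl31 overlaps Tbc1d8, which stood at 268 CPM in control and 248 CPM in treated plasmacytoid dendritic cells, and at 254 and 372 CPM in mature dendritic cells, where Rpl31 was not raised. Whether reads of the overlap were shared was not tested. Rps4l, a transcribed pseudogene of Rps4x, was also highest in plasmacytoid dendritic cells, at 0.421 per 1000 (2.54, SE 0.20).

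Rps9 held 49.4 per 1000 in neutrophils and 17.02 to 25.7 elsewhere (log2 difference 1.17, SE 0.02). Rps27 was highest in B cells at 27.96 (0.61, SE 0.03) and low in monocytes and macrophages (13.4), cDC1 (13.4) and cDC2 (15.1). Neutrophils came close to B cells on the mean of both groups, at 27.7, the controls at 17.1 to 18.9 and the treated samples at 31.8 to 36.8. Rps19 (ENSMUSG00000040952), the gene most often mutated in Diamond-Blackfan anaemia, was highest in mature dendritic cells at 16.8 (0.64, SE 0.03). CD4 T cells had the lowest Rpl10 (6.65, −0.61) and the highest Rpl12 (17.4, 0.51), the latter close to the next type at 17.2. Rpl14 was highest in cDC1 (10.5, 0.50) and Rpl15 in cDC2 at 2.44, where the next type stood at 2.40.

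**Figure D5:**
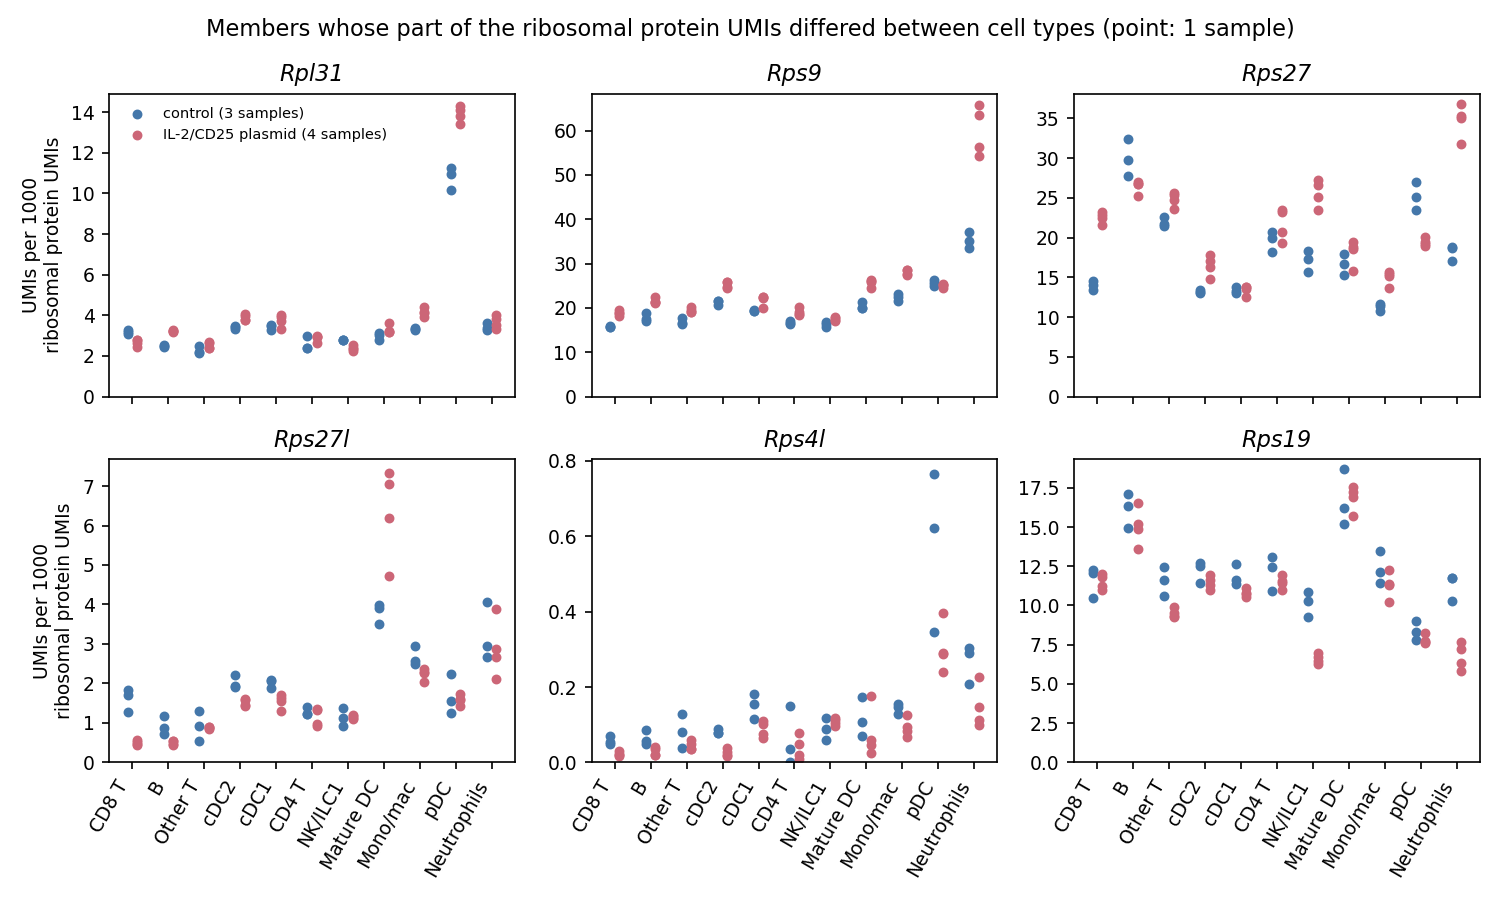
UMIs of 6 members per 1000 ribosomal protein UMIs (vertical axes) in 11 cell types, with a point for each control (blue) and treated (red) sample. Rpl31 and Rps4l stand highest in plasmacytoid dendritic cells, Rps9 in neutrophils, Rps27l in mature dendritic cells, and the groups are apart for Rps9 and Rps27 in neutrophils.

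The paralogue Rps27l (ENSMUSG00000036781), a target gene of p53 that can replace Rps27 in the ribosome, varied widely between cell types. Mature dendritic cells held 5.24 per 1000 (log2 difference 1.81, SE 0.07), neutrophils 3.03 and monocytes and macrophages 2.42. B cells held 0.677 (−1.33, SE 0.08), other T cells 0.895, CD8 T cells 0.973 and NK cells and ILC1 1.15. B cells, the lowest in Rps27l, were thus the highest in Rps27. In tumour-like cells of the controls Rps27l reached 1665 CPM ± 74.1 and made up 47.9% of the UMIs of the pair.

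With the plasmid Rps27l fell in CD8 T cells, from 367, 326 and 412 CPM to 112, 131, 135 and 115 CPM (log2 −1.69, SE 0.11, edgeR adjusted p 3.49e-08). Rps27 rose there from 3021, 3706 and 3022 to 5465, 5670, 5329 and 5741 CPM (0.68, SE 0.10, adjusted p 6.22e-05), and the part of Rps27l in the pair went from 10.3 to 2.18%. Every treated sample lay outside the control range for both genes. With 10% free RNA taken off, Rps27l in CD8 T cells went from 299 to 116 CPM, and in B cells the log2 ratio of the group means moved from −1.24 to −0.73. This ratio moved from −0.49 to −0.23 in monocytes and macrophages and from −0.44 to −0.13 in cDC2. In cDC1 it moved from −0.27 to 0.07, and the groups then overlapped. Without subtraction, Rps27l in mature dendritic cells went the other way, from 670, 580 and 723 to 741, 1046, 1084 and 985 CPM (0.53, SE 0.15, edgeR adjusted p 0.0164). There the ratio moved from 0.55 to 0.76 with subtraction.

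Rps27rt (ENSMUSG00000050621), a retrotransposed copy of Rps27, rose in CD8 T cells from 35.96, 35.5 and 41.9 to 72.2, 68.8, 58.2 and 77.0 CPM (log2 0.77), as its parent did. The first 30 bases of both transcripts in RefSeq GRCm38.p6 are shown to compare the copy with its parent at the 5′ end. Capitals mark the longest stretch found in both, 29 bases, and for Rps27l the longest stretch it has in common with Rps27.
Rps27, chr3:90213619-90213648, minus strand: cCTTTCCGGCGGTGACGACCTCCCTACGAG
Rps27rt, chr9:114982710-114982739, minus strand: CTTTCCGGCGGTGACGACCTCCCTACGAGa
Rps27l, chr9:66946086-66946115, plus strand: gCCTCtatcccggaagttgctgaggggcgc
Rps27l has only 4 bases in a row in common with Rps27 here, so the start of its transcript differs. These libraries read the 3′ end, so the bases shown do not tell whether reads of Rps27 and Rps27rt can be told apart, which was not tested.

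Rpl3l (ENSMUSG00000002500), the paralogue of Rpl3 known from heart and skeletal muscle, was found in myeloid cells of the controls. In monocytes and macrophages it held 20.6, 26.6 and 17.4 CPM in the controls and 0.887, 3.44, 1.00 and 4.80 CPM in the treated samples (log2 −3.11, SE 0.38, edgeR adjusted p 6.63e-05), from 1929 and 13 UMIs in all. In cDC2 it held 14.97, 12.9 and 14.97 against 0.842, 0, 0 and 0.942 CPM, from 79 and 2 UMIs. In neutrophils the groups were nearer, at 29.6, 33.9 and 30.3 against 22.2, 16.7, 20.9 and 21.1 CPM (−0.89, SE 0.16). The treated samples lay below the controls in all 3 types. Its neighbour in RefSeq, Msrb1, stood at 977 and 668 CPM in monocytes and macrophages, 311 and 116 in cDC2, and 1396 and 2840 in neutrophils, and whether its reads were counted for Rpl3l was not tested.

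Other paralogues changed less or with few UMIs. Rpl22l1 (ENSMUSG00000039221), a paralogue of Rpl22 with a role in blood cell development, was highest in NK cells and ILC1 (3.40 per 1000, log2 difference 0.51, SE 0.05) and fell there from 794, 870 and 857 to 494, 398, 383 and 497 CPM (−0.98). Its part in the pair with Rpl22 moved little, from 26.5 to 25.4%, and in CD8 T cells from 27.8 to 23.2%. Rpl7l1 (ENSMUSG00000063888), a nucleolar relative of Rpl7, fell in CD8 T cells from 66.9, 90.4 and 73.8 to 40.7, 36.2, 35.8 and 44.1 CPM (−1.01). Rpl36al (ENSMUSG00000049751) overlapped between groups in CD8 T cells (−0.25). Rps4l in plasmacytoid dendritic cells stood at 113, 49.3 and 105 against 41.3, 33.7, 39.0 and 57.4 CPM and overlapped, control 2 lying within the treated range. Rpl39l (ENSMUSG00000039209) had only 13 UMIs in control and 34 in treated NK cells and ILC1, and Rps19bp1 fell in CD8 T cells from 50.3, 49.7 and 47.7 to 20.6, 25.5, 29.4 and 24.8 CPM (−1.07).

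Genes outside the rule that take part in translation were counted from lists chosen with earlier results of these data known, by the TMM test. Rpsa, a small-subunit protein named outside the rule, was lower in 10 types, in NK cells and ILC1 from 4348 to 1851 CPM (log2 −1.29, SE 0.14). Of 20 other mRNAs of the TOP class, such as those of elongation factors, 16 were lower in NK cells and ILC1, 18 in neutrophils, 17 in other T cells and 14 in B cells, where 21.1, 28.7, 10.3 and 13.7% of all genes were lower. In CD8 T cells 11 were lower and 1 higher (29.4 and 27.2% of all genes), and in cDC1 2 were lower and 4 higher. Npm1, a nucleolar chaperone, was lower in 10 types and went from 1495 to 523 CPM in NK cells and ILC1 (−1.57), while Tpt1 rose in CD8 T cells from 4646 to 8559 CPM (0.79).

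Genes for making ribosomes, such as box C/D proteins and parts of RNA polymerase I, were lower in 16 of 20 in each of CD8 T cells and NK cells with ILC1 and in 17 of 20 in monocytes and macrophages, but in 1 of 19 in plasmacytoid dendritic cells, against 29.4, 21.1, 26.8 and 4.97% of all genes. Of the proteins of the mitochondrial ribosome, a separate machine that translates the genes of the mitochondrial genome, by the TMM test 73 of 78 were lower in CD8 T cells, 66 of 78 in NK cells and ILC1, 68 of 78 in monocytes and macrophages and 39 of 57 in neutrophils, where 29.4, 21.1, 26.8 and 28.7% of all genes were lower. By the same test 29 of 86 cytoplasmic members were lower and 16 higher in CD8 T cells. The CD8 T cells of the groups also differed in dividing cells (32.1 against 0.587%) and naive-like cells (22.8 against 70.7%), whose part in these counts was not tested. Of 12 listed genes that control TOP translation, 4 were higher and 3 lower in CD8 T cells (3129 and 3382 of 11521 genes). The counts were the same in NK cells and ILC1 (3020 and 2926 of 13845). Monocytes and macrophages had 1 and 3 (2680 and 2660 of 9934), and neutrophils 3 and 1 of 10 tested (1835 and 2023 of 7058). Among the 12, Eif4ebp1, a repressor of cap-dependent initiation that mTOR inactivates, was lower in all 11 types (−0.54 to −2.49). In CD8 T cells it went from 52.2 CPM ± 13.1 (SD, n = 3) to 9.97 ± 2.49 (n = 4).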

How the data were processed

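Droplet single-cell RNA libraries (10x 3′ v3.1, per the labels' protocols) of 3 control and 4 treated mouse liver samples were deposited as matrices of UMI counts, whole numbers per gene and barcode and not normalised, per the file headers. Tools listed in the submitters' processing notes are Cell Ranger 7.0.0 and bcl2fastq 5.0.1. The sources used here do not give the genome build, the annotation or the handling of reads with several matches. 0 columns of per-sample values were left unused.

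The members and all lists were chosen with earlier results of these data known. Barcodes were kept from 500 UMIs and 200 genes upward if mitochondrial genes held less than 20% of the UMIs. A cell was given to the type whose marker list stood highest against its level, with at least 2 different markers found. The levels, per 10000 UMIs, were set after the marker levels were seen. Cells that also passed a second list kept the first type when the second list was weaker by a fixed ratio. Cells that passed for both T and NK markers were taken as T cells. The 2595 barcodes left out as mixed passed a second list nearly as strongly, or were T cells with UMIs of both Cd4 and Cd8. This stands in only partly for doublet removal, since no doublet caller was run, and 5346 barcodes passed for none. T cells were split by UMIs of Cd4 and of Cd8a and Cd8b1.

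Counts were summed per sample and type (at least 20 cells) and tested in R 4.3.3 by edgeR 4.0.16 (quasi-likelihood), with filterByExpr, TMM scaling or member UMIs as the library size, and Benjamini-Hochberg adjustment over all genes tested, at 0.05. The joint fit over cell types had the sample as a block. Means and SDs are over samples, and shares are sums of UMIs over a type. On simulated counts the TMM test found 27 to 51.5% of genes changed 2-fold and 94.9 to 100% of those changed 4-fold, depending on the cell type. The simulation used a dispersion of 0.05, above the fitted common dispersions (0.00822 to 0.0251). Its changed genes were drawn at random down to low counts, so these values do not give the power for the members. Members were named by a rule: paralogues with their parents, the 5 highest and the lowest, and per type those with the largest change (at least 50 CPM, no overlap, adjusted p under 0.05) or the largest difference from other types. The members with a change in at least 10 types and the sequences shown were picked after their values were seen. Alternatives were DESeq2 1.42.0, median-of-ratios scaling, no low-count filter, the replicate block, thinned sums, 10% free RNA subtracted, cells of 1000 to 4000 UMIs, types by Leiden clusters (scanpy 1.11.5), stricter cells and each sample left out. The denominator without mitochondrial UMIs, Malat1 and Rn18s-rs5 and the shares within 1 cluster were added after seeing the data. Some genes of the lists are not reported here.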

Additional observations from a re-analysis of the deposited data

Results flagged for a closer look

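In a few groups of 4 treated samples, 1 sample stood apart from the other 3 in a member's part of the member UMIs. Rpl28 in other T cells was 6.43 per 1000 in treated sample 3 and 7.04 to 7.16 in the others. Rpl5 in B cells was 5.38 in treated sample 1 and 4.77 to 4.88 in the others. Rps25 in cDC2 was 9.08 in treated sample 1 and 9.60 to 9.67 in the others, and Rps26 in CD4 T cells was 9.88 there and 11.4 to 11.6 in the others. These are 4 of 121 groups looked at, and chance alone flags about 1 in 20 such groups.

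Of 87 members tested, the plasmid effect differed between lymphoid and myeloid cell types in 42 on the member scale, 21 in each direction. With TMM scaling it differed in 49, 3 of them with a higher and 46 with a lower effect in lymphoid types (joint edgeR fit, adjusted p under 0.05). Of all 12713 genes 20.9% were higher and 6.8% lower on the member scale, and 9.06 and 10.9% with TMM. On the member scale the members are set against their own sum, so effects in both directions arise from the scale itself.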

How the results depend on the processing

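Of 125 differences in share under other settings, 115 moved by less than the spread between samples. The difference (treated minus control, percentage points) in cells of 1000 to 4000 UMIs was −2.48 in CD8 T cells, −6.40 in NK cells and ILC1 and −0.93 in neutrophils. As a mean over cells it was −8.87 in NK cells and ILC1, −1.42 in neutrophils and 1.17 in plasmacytoid dendritic cells. Within 1 cluster it was −8.36 in B cells (82 treated cells) and −4.58 in monocytes and macrophages (139 treated cells). In neutrophils it was −1.31 without the deepest cells and 0.197 with types by clusters. Leaving out each sample in turn gave, in the same unit, −10.8 to −9.80 in NK cells and ILC1, −7.82 to −5.69 in other T cells, −5.69 to −4.08 in B cells, −4.89 to −2.82 in CD4 T cells, 0.539 to 2.55 in CD8 T cells, −2.96 to −2.10 in monocytes and macrophages, −2.27 to −1.82 in neutrophils, −2.30 to −1.35 in mature dendritic cells, −1.73 to −0.440 in plasmacytoid dendritic cells, 1.23 to 2.11 in cDC1 and −0.761 to 0.235 in cDC2. The causes were not tested.

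Counts of members called by the TMM test were 21 without the low-count filter and 9 in cells of 1000 to 4000 UMIs in CD4 T cells, 0 in such cells of monocytes and macrophages, and 41 in plasmacytoid dendritic cells taken by clusters. On the member scale cells of 1000 to 4000 UMIs gave 32 in NK cells and ILC1, 8 in CD4 T cells, 19 in CD8 T cells and 0 in monocytes and macrophages (6 at an unadjusted p under 0.05), and mature dendritic cells had 16 without the low-count filter. Between cell types, TMM in place of member UMIs gave 34 members in CD4 T cells and 81 in plasmacytoid dendritic cells. Leaving out single samples gave TMM counts of 19 to 35 in CD4 T cells, 12 to 35 in cDC1, 18 to 31 in mature dendritic cells and 14 to 25 in plasmacytoid dendritic cells, and member-scale counts of 8 to 13 in CD4 T cells and 14 to 23 in mature dendritic cells. No member called in the main fit was called in the opposite direction under another setting. Of named members Rpl7l1 in monocytes and macrophages turned, to 0.0188, in cells of 1000 to 4000 UMIs. Cells of that range were too few for cDC1, cDC2, mature and plasmacytoid dendritic cells, and no cluster stood for CD4 T cells.

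Same-numbered samples of both groups share only a number. In 0 of 33 pairs over cell types did their deviations correlate above 0.1 (−0.136 to 0.0898), and 4 correlated best with their own number. With the replicate block the TMM count was 11 in plasmacytoid dendritic cells, and the member-scale count was 18 in other T cells, 18 in B cells, 17 in mature dendritic cells and 9 in plasmacytoid dendritic cells. Depth limits the smaller types most, with 129 control CD4 T cells and 130 control plasmacytoid dendritic cells.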
